A study of Mus musculus with 8 samples.

Results

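The enterocyte digestive enzymes described here are genes named for their part in absorptive differentiation of the small intestine, and their transcripts were followed over WT and cancer cells of mouse intestinal organoids that grew alone or together. The list has 7 members: the alkaline phosphatase Alpi, the disaccharidases Sis, Mgam and Lct, the peptidases Anpep and Dpp4, and Prap1. Rows were matched by gene symbol, and 6 of the 7 were found among the 13420 genes of the read count table, while Lct was not analysed here. All members were chosen with earlier results of these data known. Alpi, Sis, Mgam, Anpep, Dpp4 and Lct were listed for what their products do, whereas Prap1 was chosen by its measured values, being higher in mixed WT cells and nearly absent from cancer cells. The values of Prap1 are therefore given as a description without a test. Only 2 of the 6, Alpi and Prap1, had enough reads to enter the test across genes (at least 10 reads at the median library size in 2 libraries, edgeR's filterByExpr), and both passed through the WT libraries.

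Organoids are miniature epithelia grown from intestinal stem cells. WT organoids came from C57BL/6 mice carrying mTmG (with Rosa26-CreERT2, by the methods), a reporter that puts red tdTomato on the membrane of every cell that has not recombined, and cancer organoids came from C57BL/6 (F6) mice with alleles that include Apc fl/fl and Tr53 fl/R172H (the label's spelling of Trp53) behind Villin-CreERT2, a tamoxifen-inducible recombinase driven by an epithelial promoter, and expressed the green protein Dendra2. Mixed cultures started from 2 parts WT to 1 part cancer cells, and on day 3 both cell types were sorted by color from mixed and from pure cultures, with 2 libraries for each of the 4 groups. Libraries are named by well: A01 and A05 are Pure WT, A02 and A06 Mixed WT, A03 and A07 Pure Cancer, and A04 and A08 Mixed Cancer. All groups were dissociated and sorted as living cells before RNA was taken.

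Enterocytes are the absorptive cells of the small intestine, and they carry a brush border of microvilli whose membrane holds the enzymes that finish digestion. Disaccharidases split sugars there, peptidases shorten peptides, and intestinal alkaline phosphatase removes phosphate groups from lipids and bacterial products. These genes come on as cells leave the crypt and climb the villus, under transcription factors of the HNF4, HNF1, CDX and GATA families, and individual enzymes belong to different heights of the villus.

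The promoters of 4 members are shown because these genes carry most reads or differ in pattern between WT groups. Each line gives the 250 bases before the transcription start from RefSeq (GRCm38.p6), 5′ to 3′ on the gene's own strand, which is chr1:87101607-87101856 (minus) for Alpi, chr7:140093146-140093395 (plus) for Prap1, chr6:40628581-40628830 (plus) for Mgam and chr3:72967864-72968113 (minus) for Sis. Capitals mark 4 short motifs on either strand, CAAAGTC (the HNF4 core), GTTAAT (an HNF1 site arm), TTTAT (the CDX core) and GATAA (the GATA core).
Alpi: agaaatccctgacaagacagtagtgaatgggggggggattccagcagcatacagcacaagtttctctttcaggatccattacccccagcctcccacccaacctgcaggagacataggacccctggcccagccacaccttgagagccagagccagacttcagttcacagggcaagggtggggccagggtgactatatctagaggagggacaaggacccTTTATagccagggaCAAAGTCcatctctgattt
Prap1: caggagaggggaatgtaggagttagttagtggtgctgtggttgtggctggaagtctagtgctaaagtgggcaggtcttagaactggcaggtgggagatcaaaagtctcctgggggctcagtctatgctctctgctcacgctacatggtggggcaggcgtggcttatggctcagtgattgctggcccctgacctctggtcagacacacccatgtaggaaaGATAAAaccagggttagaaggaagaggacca
Mgam: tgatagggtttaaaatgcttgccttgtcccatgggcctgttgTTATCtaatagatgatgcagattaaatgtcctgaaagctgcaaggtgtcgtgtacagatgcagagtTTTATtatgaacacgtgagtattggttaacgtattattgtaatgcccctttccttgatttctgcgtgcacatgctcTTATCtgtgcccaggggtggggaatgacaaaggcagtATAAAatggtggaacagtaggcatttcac
Sis: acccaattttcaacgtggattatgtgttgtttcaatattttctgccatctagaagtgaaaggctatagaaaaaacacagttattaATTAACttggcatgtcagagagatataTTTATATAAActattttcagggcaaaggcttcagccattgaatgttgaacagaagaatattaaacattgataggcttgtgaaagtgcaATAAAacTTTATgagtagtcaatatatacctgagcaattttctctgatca

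The Alpi window held 1 HNF4 core 19 bases before the start and 1 CDX core 33 bases before it, and Alpi was the single listed member with the HNF4 letters. The HNF4 core occurred in 3.84% of all 32851 RefSeq promoter windows of this length. Sis held 4 CDX cores and 1 HNF1 arm, and the HNF1 arm occurred in 6.43% of all windows. Mgam held 2 CDX and 2 GATA cores, and Prap1 held 1 of each, overlapping at 31 and 30 bases before the start. The CDX and GATA letters were common, in 37.3% and 22.6% of all windows, and TTTAT read on the opposite strand is also part of a TATA box. A match describes letters and was not tested as a binding site.

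CEL-Seq reads the 3′ end of each transcript, so levels of different genes are compared here per transcript end without correction for length. Levels are CPM, counts per 1e6 reads after scaling libraries with TMM factors. The libraries held between 73109 reads (Mixed WT A02) and 4733121 reads (Mixed Cancer A04) on genes, so that 1 read was worth 12.8 CPM in A02 and 0.188 CPM in A04. In A02, 26.1% of tested genes had 0 reads, and its mitochondrial share was 10.6% against 2.86% to 6.82% in the other libraries. A count of 0 over both libraries of a group allows a level of up to 5.63 CPM for Mixed WT, 1.01 CPM for Pure WT, 0.545 CPM for Mixed Cancer and 5.54 CPM for Pure Cancer cells (3 reads over the pooled group). These limits and all intervals cover counting error only, since reads include amplification copies. All 6 epithelial markers (Epcam, Cdh1, Krt8, Krt18, Krt19 and Vil1) had reads in every library. Their sum was 4386 to 5984 CPM in 7 libraries and 14794 CPM in Mixed WT A06. The 2 immune and 2 fibroblast markers with a row summed to at most 0.541 and 7.04 CPM in any library. Trp53 was lower in Pure Cancer than in Pure WT cells (log2 fold change -2.56, SE 0.766, adjusted p = 0.0323, edgeR), on 1 read in A03 and 24 in A07. Between Mixed Cancer and Mixed WT cells it was not called (-0.93, SE 0.736, adjusted p = 0.604, edgeR). Apc had at most 22 reads per library, and 3′ reads do not check the edited exons. In these bulk samples, fewer enterocytes and less RNA per enterocyte cannot be told apart.

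Reads of the members came almost wholly from WT libraries, and 2 members supplied nearly all of them. Summed over the 6 members, the level was 1787 CPM in A01 and 933 CPM in A05 (Pure WT), 4952 CPM in A02 and 4076 CPM in A06 (Mixed WT), and between 5.05 and 25.6 CPM in the 4 cancer libraries. Alpi and Prap1 together left only 37 of 2019 member reads to the other genes in A01, 78 of 1724 in A05, 1 of 387 in A02 and 24 of 1855 in A06. By pooled reads Prap1 ranked 175 and Alpi 348 among the 13420 genes of Pure WT cells, and 66 and 195 in Mixed WT cells. Mgam ranked 4824 and Sis 5488 in Pure WT cells. The plot of member levels by library shows the 2 abundant and the 4 scarce members on the same kind of axis.

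**Figure D1:**
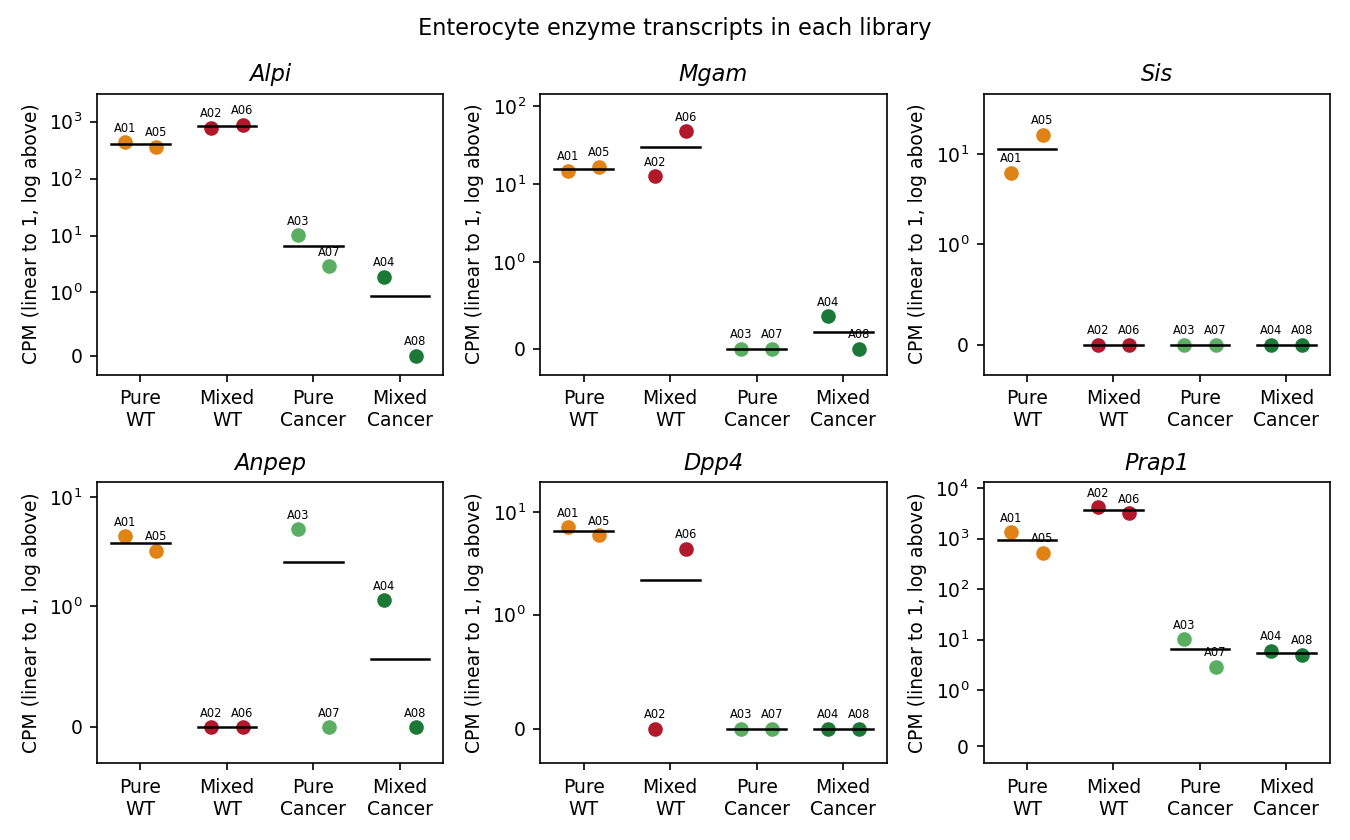
CPM of each member in each library (points, labelled by well) with the group mean (line), on an axis that is linear up to 1 and logarithmic above, for the 4 groups of 2 libraries. Alpi and Prap1 lie at 362 CPM or more in WT libraries and at 10.2 CPM or less in cancer libraries, and Sis has reads in Pure WT cells alone.

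Alpi, the intestinal alkaline phosphatase (chr1:87098002-87101606, minus strand, GRCm38), had 492 reads in A01 and 669 in A05 of the Pure WT libraries, and 61 in A02 and 405 in A06 of the Mixed WT libraries. As levels these were 435 and 362 CPM against 781 and 890 CPM. Both Mixed WT libraries thus lay above both Pure WT libraries, at 835 ± 77.3 CPM against 399 ± 51.8 CPM (mean ± SD, n = 2 each). Over pooled libraries the ratio was 2.24 (95% counting interval 2.01 to 2.50). In edgeR's test over all 8 libraries the log2 fold change was 1.06 (SE 0.454, unadjusted p = 0.0283, adjusted p = 0.419), so the difference did not pass the test across genes. DESeq2 gave 1.16 with an adjusted p of 0.283. In this comparison edgeR called 0.646% of the 5264 tested genes higher and 0.095% lower, and 0 of the members tested apart from Prap1. Of the tested genes 263 were higher and 246 lower at an unadjusted p under 0.05.

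In cancer cells Alpi was nearly absent. Pure Cancer A03 and A07 had 2 and 1 reads (10.2 and 2.89 CPM), and Mixed Cancer A04 and A08 had 10 and 0 reads (1.88 and 0 CPM). No cancer library came near a WT library. Alpi was lower in Pure Cancer than in Pure WT cells (log2 fold change -6.11, SE 0.704, adjusted p = 2.70e-06, edgeR) and lower in Mixed Cancer than in Mixed WT cells (-8.80, SE 0.723, adjusted p = 1.23e-08). Over pooled libraries the level in Pure Cancer cells was 1.42% of that in Pure WT cells, from 3 reads, with WT cells 70.4-fold higher (interval 24.0 to 342). Mixed Cancer cells had 0.208% of the Mixed WT level, with WT cells 481-fold higher (259 to 1011). The background was 5.11% of tested genes called higher and 4.84% lower in Pure Cancer cells, and 2.01% higher and 4.41% lower in Mixed Cancer cells. The log2 fold change in Pure Cancer cells was -7.11 without A03 and -5.38 without A07, and barcode counts gave -4.70 in pure and -6.65 in mixed culture, all past the threshold. Without A04 the Mixed Cancer group had 0 Alpi reads, and its fitted value (-12.00) is no bound. Because Alpi entered the test only through its WT reads, its call has to be read against that filter.

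Between Mixed and Pure Cancer cells Alpi differed by a log2 fold change of -1.63 (SE 1.05, adjusted p = 1, edgeR) on 10 and 3 reads, which do not set an order of the cancer groups. In that comparison edgeR called 0% of genes higher and 0% lower, with 54 and 15 at an unadjusted p under 0.05, and DESeq2 also called 0. The test of the difference between the WT and the cancer change gave 2.69 for Alpi (SE 1.18, unadjusted p = 0.0319, adjusted p = 0.635), against a background of 0.076% of genes called higher and 0% lower (207 lower at an unadjusted p under 0.05, and 13 genes called by DESeq2 in either direction). That Alpi moved differently with mixing in WT and cancer cells was therefore not shown.

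The disaccharidases did not share 1 pattern between the WT groups. Mgam encodes maltase-glucoamylase, which releases glucose from starch fragments (chr6:40628831-40769123, plus strand). Its reads numbered 17 and 31 for Pure WT A01 and A05, and 1 and 22 for Mixed WT A02 and A06. The levels were 15.0 and 16.8 CPM against 12.8 and 48.3 CPM, so the groups overlapped and the excess rested on A06. The pooled ratio of Mixed to Pure WT cells was 2.68 by reads (interval 1.55 to 4.48) and 1.69 by molecule barcodes (0.821 to 3.27). Mgam had 0 reads in both Pure Cancer libraries, and 2 reads in Mixed Cancer A04 and 0 in A08. Pure Cancer cells were at least 2.91-fold lower than Pure WT cells by the 3-read limit, and at least 2.28-fold by the counting interval. The Mixed WT level was 119-fold above the Mixed Cancer level, with a wide interval (29.4 to 1040) from these 2 reads. Mgam missed the filter. When all genes were fitted it passed the test between Mixed Cancer and Mixed WT cells (log2 fold change -6.20, SE 1.44, adjusted p = 0.00113, edgeR without a filter) and missed it between Pure Cancer and Pure WT cells (adjusted p = 0.108). Of its Mixed WT reads 22 of 23 came from A06, and without A06 Mgam was not tested. Between the mixed groups it was tested and missed without A01 (-6.23) or A05 (-6.09). It also missed without A04, where the Mixed Cancer group had 0 reads.

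Sis encodes sucrase-isomaltase, which splits sucrose and short starch products (chr3:72888557-72967863, minus strand). It had 7 reads in A01 and 30 in A05, or 6.19 and 16.2 CPM (11.2 ± 7.10 CPM, n = 2), and 0 reads in each of the other 6 libraries. Sis was thus the single member with reads in Pure WT cells alone. Over pooled libraries Mixed WT cells were at least 2.21-fold lower than Pure WT cells, and the counting interval of the ratio ended at 0.585 by reads and at 0.922 by molecule barcodes (0 against 20). In A06, the deeper Mixed WT library, 0 reads allow up to 6.59 CPM, which is above the level of A01 and below that of A05. In A02 the limit is 38.4 CPM, above both. Without the filter edgeR gave an unadjusted p of 0.0341 and an adjusted p of 0.686 for Sis between the WT groups, so no difference was called. Pure Cancer cells were at least 2.24-fold lower than Pure WT cells, and no fold can be given for Mixed Cancer against Mixed WT cells, both at 0.

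The peptidases were the scarcest members. Dpp4 encodes dipeptidyl peptidase 4, which trims dipeptides from peptides and cleaves incretin hormones (chr2:62330073-62412231, minus strand). It had 8 and 11 reads in A01 and A05 of the Pure WT libraries (7.08 and 5.96 CPM), 0 and 2 in Mixed WT A02 and A06, and 0 in all cancer libraries. The pooled Mixed to Pure WT ratio was 0.588 with an interval of 0.0664 to 2.44, which holds 1. With 0 reads in Pure Cancer cells, the interval of their ratio to Pure WT cells ended at 1.18 and also held 1. Anpep encodes aminopeptidase N, which removes single residues from the amino end of peptides (chr7:79821803-79861059, minus strand). It had 5 and 6 reads in A01 and A05 of the Pure WT libraries (4.42 and 3.25 CPM), 0 in both Mixed WT libraries, 1 and 0 in Pure Cancer A03 and A07, and 6 and 0 in Mixed Cancer A04 and A08. The 0 reads in Mixed WT cells allow 5.63 CPM, more than the Pure WT level, so a difference was not detectable at this depth. A single Pure Cancer read in A03 amounts to 5.11 CPM, and Anpep therefore gave no order of WT and cancer cells.

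**Figure D2:**
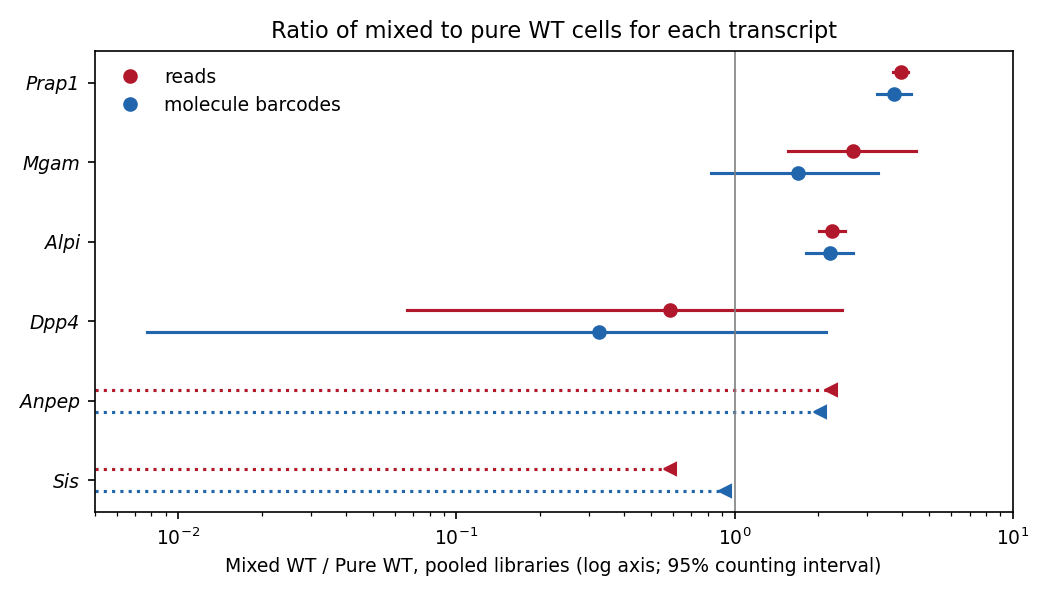
Ratio of Mixed WT to Pure WT levels over pooled libraries (horizontal log axis) for each member, from reads (red) and molecule barcodes (blue), with 95% counting intervals as bars; arrowheads with dotted lines are upper limits for members with 0 reads in Mixed WT cells, and the vertical line marks a ratio of 1. Alpi and Prap1 lie above 1 and the limit of Sis below it by both measures, Mgam lies above 1 by reads only, and the Dpp4 and Anpep ranges include 1. The intervals do not cover the spread between libraries.

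Prap1 encodes proline-rich acidic protein 1 (chr7:140093395-140097200, plus strand), a secreted protein of the gut epithelium that binds lipid and is not an enzyme. Its reads numbered 1490 and 977 for Pure WT A01 and A05, and 325 and 1426 for Mixed WT A02 and A06. These were 1319 and 529 CPM against 4159 and 3133 CPM, with both Mixed WT libraries above both Pure WT libraries. The group levels were 924 ± 558 and 3646 ± 725 CPM (n = 2 each). Prap1 had 2 and 1 reads in Pure Cancer A03 and A07 (10.2 and 2.89 CPM) and 32 and 1 reads in Mixed Cancer A04 and A08 (6.02 and 5.05 CPM). Every library of each group thus had at least 1 read of Prap1, unlike any other member. The pooled ratio of Mixed to Pure WT cells was 3.96, WT cells were 149-fold above cancer cells in pure culture (interval 51.1 to 725, from 3 cancer reads) and 548-fold in mixed culture (389 to 799), and Mixed to Pure Cancer cells gave 1.08 (0.339 to 5.51). These values chose the gene and support nothing beyond themselves.

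Molecule barcodes limited what the other count tables could show for Prap1. A barcode has 4 bases, which limits how many can differ per gene and library, and Prap1 came close to that limit with 244, 224 and 247 barcodes in A01, A05 and A06 but had 138 in A02. The estimated transcript counts, which correct for molecules sharing a barcode, were 782, 531, 855 and 198 in the same order. Reads per barcode of Prap1 were 6.11, 4.36 and 5.77 in these libraries and 2.36 in A02, so its read levels are not proportional to barcodes between libraries. For Alpi barcodes stayed at 176 or less, and the barcode fit gave a log2 fold change of 1.04 between the WT groups against 1.06 from reads. Shared barcodes still mattered for Alpi, with 248 and 297 estimated transcripts for 159 and 176 barcodes in A01 and A05. In A02 and A06 there were 24.05 and 200 for 23 and 139 barcodes. The fit of estimated transcripts gave 0.925.

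The balance of the abundant members also differed between WT libraries. Per Alpi read there were 3.03 and 1.46 Prap1 reads in Pure WT A01 and A05, and 5.33 and 3.52 in Mixed WT A02 and A06. Prap1 made up 73.8% of member reads for A01 and 56.7% for A05, against 84.0% for A02 and 76.9% for A06. The 2 groups did not overlap in either measure, but Prap1 was chosen on this contrast.

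The order of levels over the groups differed between members. Alpi and Prap1 were highest in Mixed WT cells, next in Pure WT cells and lowest in both cancer groups, and the 2 cancer groups could not be separated by their counting intervals. Mgam had the same WT order with overlapping libraries. Sis, Dpp4 and Anpep had their highest group means in Pure WT cells, where only Sis was separated from Mixed WT cells by its pooled counting interval. For Anpep this sets no order, since Pure Cancer A03 (5.11 CPM from 1 read) lay above both Pure WT libraries (4.42 and 3.25 CPM). The order of all 6 members was the same with barcode counts and with RLE size factors.

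Across the 8 libraries the genes most like Alpi among 2744 candidates were Pycard (Pearson r of log2 CPM 0.990), Lgals2 (0.988) and Tm4sf5 (0.986). Lgals2, which encodes a galectin, had 5438 CPM in Mixed WT and 3824 in Pure WT cells, and 9.47 in Mixed Cancer and 19.7 in Pure Cancer cells. Those most like Prap1 were Zg16 (0.993), Lypd8 (0.986) and Alpi (0.980). Lypd8, which encodes a secreted protein that keeps bacteria from the colonic surface, had 5958, 1301, 11.0 and 6.90 CPM in the same order. The libraries fall into a WT and a cancer cluster, so these correlations describe mainly that contrast and carry no p-value.

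Other genes of the absorptive program were taken from lists of known function, drawn up with earlier results of these data known. As with Alpi, genes with few or no cancer reads entered the test through their WT libraries, so their calls and the list counts built on them have to be read against that filter. Of 21 further brush border hydrolases, 14 had a row and 1, Mep1b, passed the filter. Mep1b encodes the beta subunit of the metalloprotease meprin, and had 31.9 and 33.6 CPM in Pure WT A01 and A05 and 25.6 and 43.9 CPM in Mixed WT A02 and A06, with overlapping groups (log2 fold change 0.20, SE 0.867, adjusted p = 0.976, edgeR). It had 0 reads in all cancer libraries, so that it was at least 5.94-fold lower in Pure Cancer than in Pure WT cells (adjusted p = 0.0204) and at least 75.8-fold lower in Mixed Cancer than in Mixed WT cells (adjusted p = 0.000962). Of the 14 hydrolases 8 were detected in 588144 pooled reads of Mixed WT and 13 in 3008832 of Pure WT cells, against 4 in 4934258 of Mixed Cancer and 2 in 543861 of Pure Cancer cells. These counts depend on depth, and the Mixed WT sum in A02 rests on 3 reads. The summed hydrolase level was 72.5 to 80.5 CPM in Pure WT and 38.4 to 63.7 CPM in Mixed WT libraries, and it was 7.53 to 20.2 CPM in Mixed Cancer and 0 to 11.6 CPM in Pure Cancer libraries.

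Apical nutrient transporters had 12 of 14 genes with a row and 2 past the filter. Slc5a1, the sodium-glucose cotransporter that takes up the products of the disaccharidases, had 68.1 and 54.7 CPM in Pure WT A01 and A05 and 38.4 and 63.7 CPM in Mixed WT A02 and A06 (log2 fold change -0.18, SE 0.777, adjusted p = 0.976, edgeR). With 0 reads in cancer cells it was at least 10.8-fold lower in Pure Cancer cells (adjusted p = 0.00327) and at least 110-fold lower in Mixed Cancer cells (adjusted p = 0.000216) than in the matching WT cells. The other tested gene of the list, Slc7a7, passed in no comparison, and its product exports amino acids at the basolateral and not the apical side.

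Enterocyte metabolism and lipid genes were measured most fully, with 18 of 18 in the table and 14 past the filter. Between Mixed and Pure WT cells 0 of 14 were called by edgeR, 4 had a positive log2 fold change, and the median was -0.68 against -0.10 over all tested genes. Krt20, a keratin of differentiated surface cells, and Cbr1, a carbonyl reductase, named after their values were seen, were on the positive side (2.65 with adjusted p = 0.258, and 1.16 with adjusted p = 0.422). Fabp1, the fatty acid binding protein of the proximal gut, had 233 and 47.1 CPM in Pure WT A01 and A05 and 205 and 6.59 CPM in Mixed WT A02 and A06, which differed more within than between groups. Apoa1, an apolipoprotein of high density lipoprotein, had 317 and 76.9 CPM against 243 and 68.1 CPM, and also overlapped. In cancer cells 9 of the 14 were lower in pure culture and 10 in mixed culture, with 0 higher in either, where 4.84% and 4.41% of all tested genes were called lower. These counts were 5 in pure culture without Pure WT A01, and 4 and 6 in mixed culture without Mixed Cancer A04 or Mixed WT A06. The medians were -5.78 and -4.98, against -0.05 and 0.12 over all genes, and -3.61 in pure culture when genes with 0 cancer reads were set to their bound. Apoa1, Fabp1 and Fabp2, which binds fatty acids as Fabp1 does, had 0 reads in Pure Cancer cells and were at least 30.3-fold, 21.2-fold and 20.8-fold lower than in Pure WT cells. Apoa4 (at least 12.0-fold), the cytochrome P450 gene Cyp2c65 (12.4-fold) and Mttp, which loads lipid onto apolipoprotein B (7.63-fold), were lower as well. In mixed culture Apoa1 and Fabp1 had 1 cancer read each, and Mixed WT cells were 517-fold (counting interval 88.6 to 20807) and 196-fold (31.2 to 8157) above Mixed Cancer cells.

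**Figure D3:**
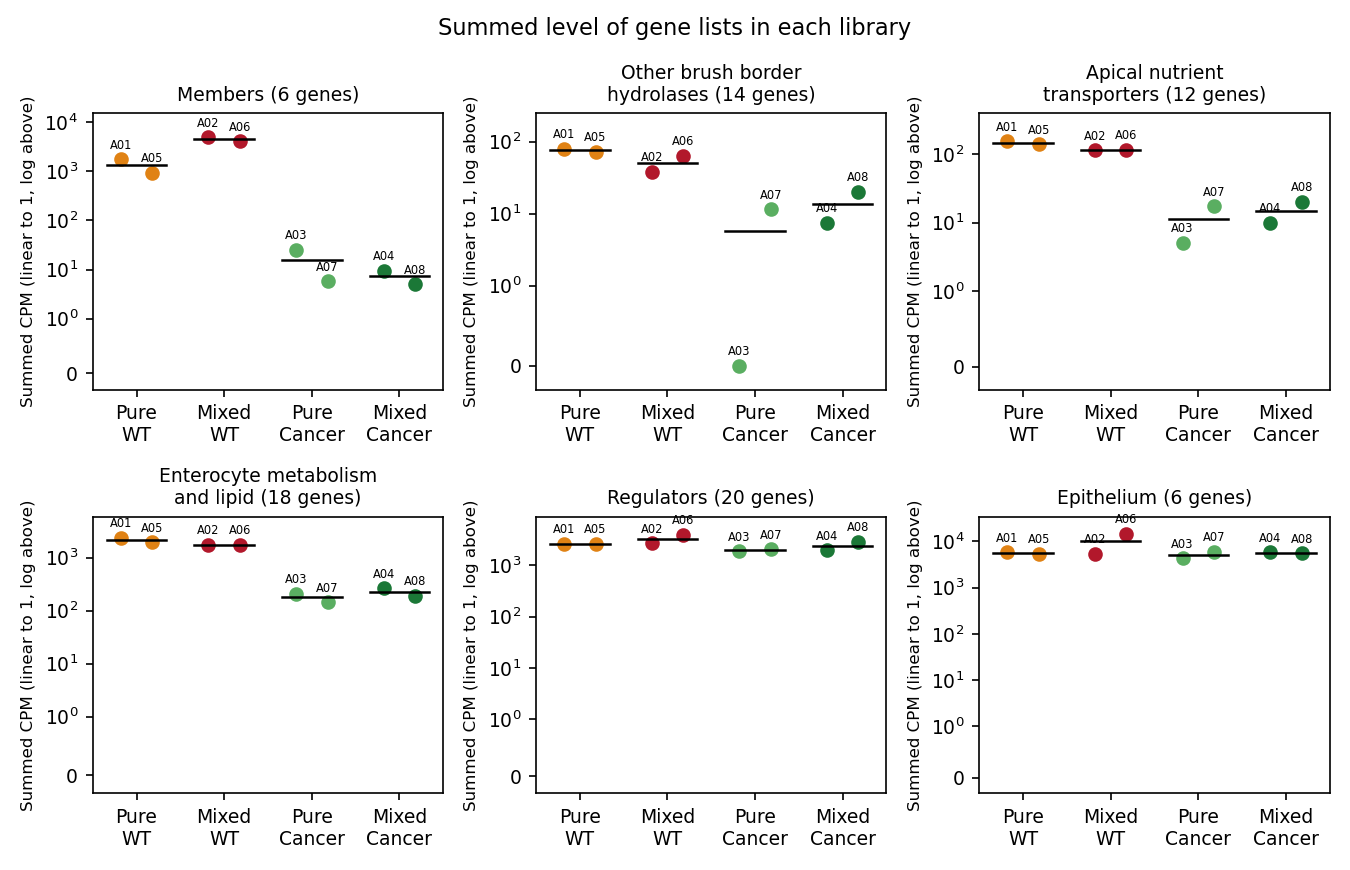
Summed CPM of the members and of 5 gene lists in each library (points, labelled by well) with the group mean (line), on an axis that is linear up to 1 and logarithmic above. Members, other hydrolases, transporters and metabolism genes are lower in all 4 cancer libraries than in any WT library; regulators (whose sum is carried by Elf3) and epithelial markers overlap between WT and cancer libraries, apart from 14794 CPM of epithelial markers in Mixed WT A06. The member sum is mostly Prap1 in WT libraries, which was chosen by its level in Mixed WT cells.

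Among 20 regulators of enterocyte genes, 20 had a row and 12 passed the filter. Between Mixed and Pure WT cells edgeR called 0, with a median of -0.09 against -0.10 over all genes. Hnf4a, the nuclear receptor that drives enterocyte genes and whose core letters stand before Alpi, had 311 and 319 CPM in Pure WT A01 and A05 and 358 and 622 CPM in Mixed WT A02 and A06 (log2 fold change 0.66, SE 0.509, adjusted p = 0.746). It fell to 46.0 and 34.7 CPM in Pure Cancer A03 and A07 (-2.99, SE 0.598, adjusted p = 0.00146) and to 32.8 and 5.05 CPM in Mixed Cancer A04 and A08 against Mixed WT cells (-4.31, SE 0.602, adjusted p = 3.10e-05). Cdx1, a homeobox factor of the intestine, had 267 and 258 CPM in Pure WT and 12.8 and 123 CPM in Mixed WT cells (-1.67, SE 0.646, adjusted p = 0.352). Cdx1 had 0 reads in Pure Cancer cells, at least 47.2-fold below Pure WT cells (adjusted p = 3.79e-05), and 4 reads in Mixed Cancer cells. Vdr, the vitamin D receptor, had 163 and 343 CPM in Pure WT and 0 and 90.1 CPM in Mixed WT cells (-2.09, SE 0.753, adjusted p = 0.293). Vdr was at least 49.6-fold lower in Pure Cancer than in Pure WT cells (adjusted p = 0.000166).

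The GATA factors and Cdx2 passed in 1 comparison each. Gata4, a factor of the proximal intestine, was lower in Pure Cancer than in Pure WT cells (log2 fold change -3.19, SE 0.853, adjusted p = 0.0162, edgeR), and Gata6 (-5.25, SE 1.36, adjusted p = 0.0169) and Cdx2 (-3.80, SE 0.960, adjusted p = 0.0147) were lower in Mixed Cancer than in Mixed WT cells. In all, 4 of 12 regulators were lower in pure and 5 in mixed culture and 0 were higher, with medians of -2.64 and -1.94, beside 4.84% and 4.41% of all tested genes called lower. The count in mixed culture was 1 without Mixed WT A06, 2 without Mixed Cancer A04, and 8 without Pure Cancer A03 or A07. The summed level of the 20 genes, 1912 to 3949 CPM, overlapped between WT and cancer libraries. It was carried by Elf3, an epithelial ETS factor named after its level was seen, which supplied 38.3% to 72.4% of the sum in WT and 84.0% to 86.6% in cancer libraries and passed in no comparison. Without Elf3 the other 19 genes summed to 742 to 1622 CPM in WT libraries and to 304 to 388 CPM in cancer libraries, without overlap.

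**Figure D4:**
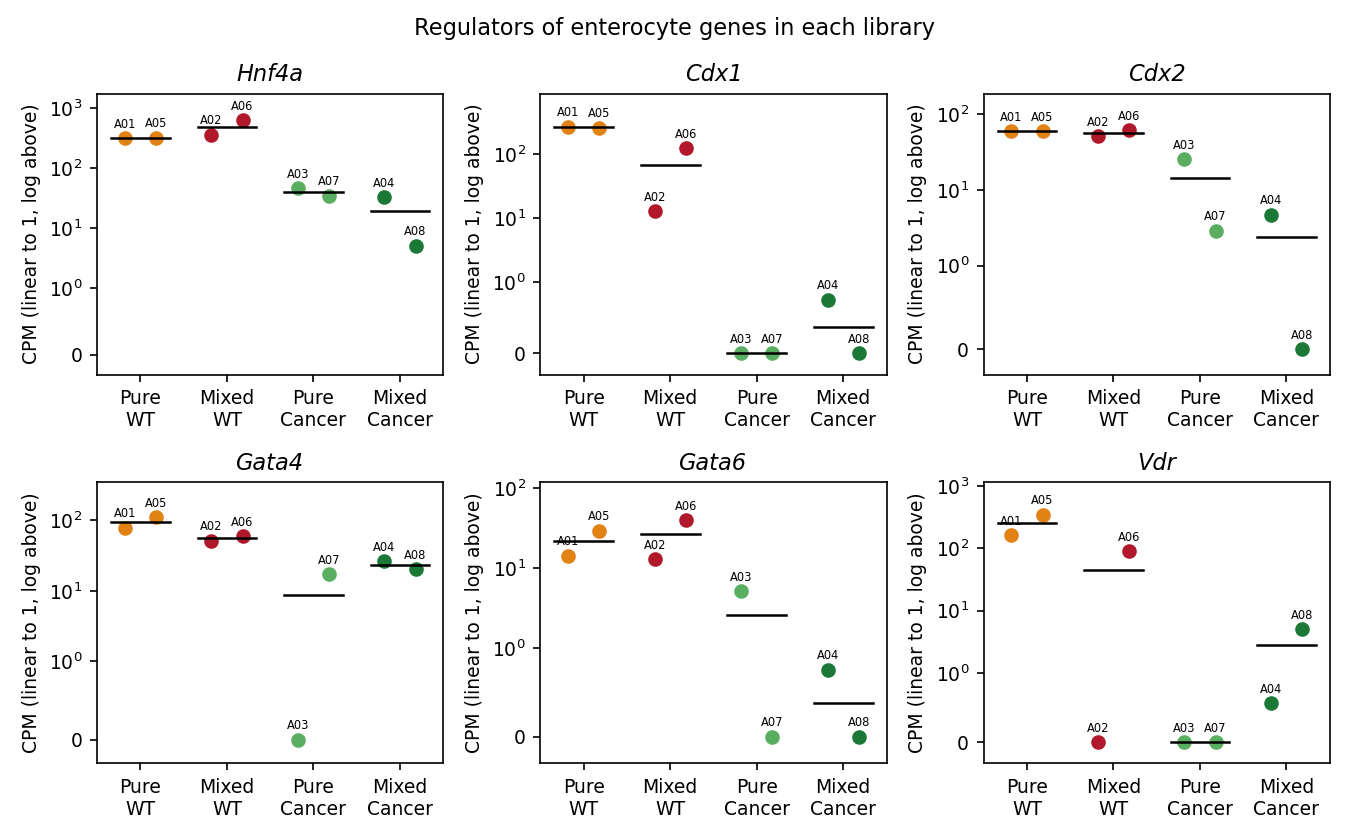
CPM of 6 regulators called in at least 1 cancer against WT comparison, in each library (points, labelled by well) with the group mean (line), on an axis that is linear up to 1 and logarithmic above. Hnf4a stays between 311 and 622 CPM in WT libraries and at 46.0 CPM or less in cancer libraries, while Cdx1 and Vdr lie lower in both Mixed WT than in both Pure WT libraries, a difference that edgeR did not call (with a replicate block of wells it called Vdr lower).

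Genes that mark suckling-type and adult-type enterocytes gave little. Of 10 suckling-type genes 6 had a row and 2 passed the filter. Ctsl, a lysosomal protease that many cells express, was higher in Pure Cancer than in Pure WT cells (log2 fold change 2.14, SE 0.622, adjusted p = 0.0274, edgeR). The other tested gene, Glb1, was not called (-0.01, SE 0.821, adjusted p = 0.996, edgeR). The untested genes went both ways. Pooled levels in Pure WT and Pure Cancer cells were 27.5 and 0 CPM for Amn and 4.37 and 0 CPM for Fcgrt. They were 1.34 and 7.39 CPM for Ass1 and 0 and 1.85 CPM for Prdm1. None of the 4 adult-type genes, to which Sis and Mgam belong, passed the filter.

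Markers of other epithelial cells also differed between cancer and WT cells, not all in 1 direction. Of 4 tested enteroendocrine markers 4 were lower in Pure Cancer than in Pure WT cells and 3 in Mixed Cancer than in Mixed WT cells, and the sum of the 9 in the table was 214 to 293 CPM in WT libraries and at most 1.51 CPM in cancer libraries. The count in pure culture was 1 without Pure WT A05 and 2 without Pure Cancer A07, the count in mixed culture was 1 without Mixed Cancer A04 and 5 without Pure Cancer A03 or A07, where the filter lets more of the 9 be tested, and both were 0 at a minimum count of 50. Of 6 tested goblet markers 5 and 4 were lower, with sums of 2853 to 3839 CPM in WT and 438 to 1084 CPM in cancer libraries. Spink4, named after its level was seen, supplied most of the cancer sum, at 885 CPM in pooled Pure Cancer and 444 CPM in pooled Mixed Cancer cells. It was not called against the matching WT cells (log2 fold change 0.59 in pure and 0.22 in mixed culture, edgeR). Of 4 tested Paneth markers 3 were lower in both comparisons and Mmp7 was higher, with sums of 896 to 4059 CPM in WT and 506 to 858 CPM in cancer libraries. Mmp7 supplied most of the cancer sum, with 465 to 837 CPM in cancer and 72.5 to 124 CPM in WT libraries. Of all tested genes 4.84% were called lower in pure and 4.41% in mixed culture. Of 7 tested stem cell markers 2 were lower in pure culture (1 without any of Pure WT A01 or A05, Pure Cancer A03, or Mixed Cancer A04 or A08) and 1 lower and 1 higher in mixed culture, where their median was 0.91. The tuft cell marker Avil was higher in Pure Cancer cells (log2 fold change 4.07, SE 0.818, adjusted p = 0.00156, edgeR). Between Mixed and Pure WT cells edgeR called 0 of these markers (with a replicate block of wells, Axin2, Itln1 and Lyz1 were called lower), and the Paneth sum was 2101 and 4059 CPM in Pure WT A01 and A05 against 896 and 1463 CPM in Mixed WT A02 and A06. The part of these cell types in the levels of the members was not tested.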

How the data were processed

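CEL-Seq libraries of sorted organoid cells (8 libraries, 4 groups by label) were analysed from tables the authors deposited. Per the labels and the study's methods, reads were aligned to mm10 transcripts with BWA and assigned with featureCounts, tools that the submitters' processing notes also list. The deposited tables hold raw read counts by gene, counts of different molecule barcodes, and estimated counts of transcripts corrected for shared barcodes by the authors (rounded here). A deposited table of the authors' own DESeq2 1.22.2 comparison (mean, log2 fold change, error, statistic and p-values) was not used.

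Read counts were fitted with edgeR 4.0.16 in R 4.3.3 (limma 3.58.1 loaded): filterByExpr at a minimum count of 10, TMM factors, and a single quasi-likelihood fit of all 8 libraries, with Benjamini-Hochberg adjustment over 5264 genes and a threshold of 0.05. Spike-in rows were left out (at most 1 read per library). SE is the absolute log2 fold change over the square root of F. Pooled ratios have exact conditional binomial 95% intervals. A group with 0 reads was set against the level of 3 reads.

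The labels do not say whether the 2 libraries of a group come from separate cultures, so p-values measure the spread between these libraries, which may be technical. The members and lists were chosen with earlier results of these data known. Named genes are all members, list genes called in any comparison (at most 6 per list and comparison, largest change first), Apc and Trp53, and the 3 genes most like each member with a mean of at least 50 reads. Cell type markers were counted as lists, and some items that the rule names are not reported here. Gene positions came from GENCODE vM21 (GRCm38), where 0 of 451 windows of 50 bases at the 3′ end of any member were shared with another gene. Promoters of all 7 members were found in RefSeq. The alternatives were barcode or transcript counts, RLE factors, a minimum count of 50 or none, only the libraries compared, DESeq2 1.42.0, and each library left out. A block of wells and the regulator sum without Elf3 were added after the data were seen. Figures were drawn with matplotlib 3.10.9.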

Additional observations from a re-analysis of the deposited data

How the results depend on the processing

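Prap1 aside, Alpi was the only member tested in the main fit, so its count of members called could only be 0 or 1. The count was 0 for mixing in WT cells, 0 in cancer cells, 0 for their difference and 1 for Pure Cancer against Pure WT cells. It was the same in every alternative that tested a member, the block included. With only the libraries compared, 0 members were tested between Mixed and Pure Cancer cells and the difference was not fitted. Of 5264 genes the main fit called 39 for mixing in WT cells, 0 in cancer cells and 4 for their difference. It called 524 for Pure Cancer against Pure WT cells. Between Mixed Cancer and Mixed WT cells, DESeq2 and the fit without a filter also tested and called Mgam (log2 fold change -6.07, adjusted p = 0.00852 in DESeq2). The count there was 2, against 1 in the main fit. With each library left out it ranged from 1 to 2, and was 2 without Mixed WT A02, Pure Cancer A03 or A07, or Mixed Cancer A08. Mgam was tested without A01, A04 or A05 as well and was not called there. Alpi kept its direction and its side of the threshold throughout. Its log2 fold change ranged from 0.86 to 1.21 between WT groups (adjusted p 0.168 to 1), from -7.11 to -4.70 in Pure Cancer and from -12.00 to -6.65 in Mixed Cancer cells.

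Counts of called list genes, recomputed after the data were seen, were less stable. Metabolism genes lower in Pure Cancer cells went from 9 to 5 at a minimum count of 50 or without Pure WT A01, and in Mixed Cancer cells from 10 to 5 at a minimum of 50 or with only the libraries compared, 4 without Mixed Cancer A04 and 6 without Mixed WT A06. Regulators lower in Mixed Cancer cells went from 5 to 3 at a minimum of 50, 2 with only the libraries compared, 2 without Mixed Cancer A04, 1 without Mixed WT A06 and 8 without Pure Cancer A03 or A07. RLE factors moved the median of all genes from -0.17 to -0.06 for the difference of the mixing effects. Over all alternatives that median ranged from -1.06 without a filter to 0.29 with DESeq2. For mixing in WT cells the median was -0.10 in the main fit. It ranged from -0.74 without Mixed WT A06 to 0.03 at a minimum count of 50. The labels give wells and do not say which were cultured together. A replicate block of wells in runs of 4 (A01 to A04 and A05 to A08), added after the data were seen, left the member counts at 0, 0, 1, 1 and 0, gave Alpi a log2 fold change of 1.08 between WT groups (adjusted p = 0.209), and raised the calls over all genes in WT mixing from 39 to 119 and for the difference of the mixing effects from 4 to 30. In WT mixing it called the regulator Vdr and the markers Axin2, Itln1 and Lyz1 lower, where the fit without it called 0 of these lists. Deviations from the group means correlated at 0.04 to 0.21 between groups within these runs.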
